A study of Mus musculus and Homo sapiens with 8 samples.

Results

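MHC class II presentation genes were examined in small-intestinal crypts, as 7 genes of the 13359 distinct genes in the table. The 7 were picked by gene symbol, with earlier results of these data known. H2-Aa, H2-Ab1 and H2-Eb1 encode class II chains, Cd74 encodes the invariant chain, H2-DMa and H2-DMb1 encode the peptide-loading factor, and Ciita encodes the class II transactivator. All 7 were present and all 7 passed the filter of at least 1 FPKM (reads scaled by gene length and library total) in at least 2 libraries, as did 12948 genes in all. RNA-seq was done on 2 libraries labelled as Apc Min with Zmynd8, a chromatin reader gene, deleted in intestinal epithelial cells, and on 2 libraries of Apc Min mice, the controls. Each library mixed RNA of 3 mice, which were untreated, 2 months old and C57BL/6, and both groups carried the Apc Min allele, so no library was wild type for Apc. The Cre driver is not named in the labels, and cells other than epithelium would keep Zmynd8. The labels do not say whether pools came from separate litters or days, and p-values reflect only how far these pools vary, which may be technical.

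Class II molecules carry peptides from endosomes to the surface, where CD4 T cells read them. Dendritic cells, macrophages and B cells express them constantly, and the small-intestinal epithelium expresses them as well, more so under interferon gamma. An alpha and a beta chain assemble with the invariant chain in the endoplasmic reticulum. Cathepsins then cut the invariant chain down to a fragment in the groove, and the DM heterodimer exchanges that fragment for peptide. Transcription of this set runs through CIITA, which binds no DNA itself and docks on RFX, CREB and NF-Y proteins at the X and Y boxes of class II promoters. Mice of the C57BL/6 strain make H2-Eb1 RNA but no E alpha chain, because H2-Ea is a pseudogene in that strain.

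The promoters of H2-Aa, H2-Eb1 and H2-DMb1 are shown because they carry the motif TGATTGG, and that of H2-DMb2 because it is a close relative of H2-DMb1 with another pattern. The sequences are from RefSeq, build GRCm38.p6, which is mm10, and each covers the 150 bases before the gene start, on the strand of the gene. Capitals mark TGATTGG, a Y box form that NF-Y binds, and, in H2-DMb1, CCNAGNNAC, an X box form. Forms a base away from CCNAGNNAC, as actagcaac in H2-Eb1 and cctattaac in H2-DMb2, are neither marked nor counted. A promoter without a marked X box form may thus still hold an X box. CCNAGNNAC itself was marked only where ATTGG followed at the distance given below, on the strand of the gene. Unmarked matches to it, on either strand, numbered 1 for H2-Aa and 2 for H2-DMb2 in the longer windows described below.
H2-Aa, chr17:34287824-34287973, minus strand: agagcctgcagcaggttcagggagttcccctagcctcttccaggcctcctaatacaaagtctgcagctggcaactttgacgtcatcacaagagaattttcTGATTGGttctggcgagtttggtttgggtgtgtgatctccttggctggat
H2-Eb1, chr17:34305717-34305866, plus strand: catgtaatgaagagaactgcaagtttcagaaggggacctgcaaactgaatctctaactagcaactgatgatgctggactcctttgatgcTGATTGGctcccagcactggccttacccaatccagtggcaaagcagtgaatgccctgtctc
H2-DMb1, chr17:34153041-34153190, plus strand: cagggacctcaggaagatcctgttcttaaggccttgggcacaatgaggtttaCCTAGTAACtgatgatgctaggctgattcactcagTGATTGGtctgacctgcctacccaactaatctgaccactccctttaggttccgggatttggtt
H2-DMb2, chr17:34145099-34145248, plus strand: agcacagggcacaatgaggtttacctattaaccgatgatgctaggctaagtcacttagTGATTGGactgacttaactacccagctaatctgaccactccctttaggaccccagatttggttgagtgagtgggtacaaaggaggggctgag

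Windows of 250 bases before to 50 after the gene start were read for 4 members (5 windows, 2 of them for H2-DMa) and for 4 other class II genes (4 windows). No window was available for H2-Ab1 and Ciita. Class II genes on chromosome 18 were left out of the counts, which excluded Cd74, so the member counts do not cover these genes. TGATTGG on the strand of the gene stood in 3 of the 5 member windows and in 4 of the 4 other windows, against 4.01% of all 32851 windows. It starts 50 bases before the gene start in H2-Aa, 61 in H2-Eb1 and 63 in H2-DMb1. That form was chosen after the sequences were read, and it is absent from both windows of H2-DMa, which are not printed. Those windows lie near the upstream end of a span of 16383 bases that overlaps Brd2. Any start of H2-DMa further into that span was not read. CCNAGNNAC, on either strand, occurs in 17.3% of all windows, and ATTGG, which TGATTGG contains, in 37.4%. Both on 1 strand, with ATTGG starting 25 to 50 bases after the start of CCNAGNNAC, occur in 0.432%. This pair stood in 1 member window, that of H2-DMb1, where the starts lie 37 bases apart, and in 2 of the other 4, those of H2-Oa and H2-Ob. A match describes letters and not binding.

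The libraries were deep for these genes. The totals behind the FPKM values came to 46551218 and 47990019 reads in the libraries labelled knockout and to 44718091 and 48778712 reads in the controls. Members took 0.324% and 0.237% of those totals in the libraries labelled knockout, against 0.244% and 0.384% in the controls. Zmynd8 itself had 7.30 and 7.65 FPKM in the libraries labelled knockout, against 6.94 and 4.73 FPKM in the controls, so its RNA was not lower there and the directions below rest on the labels. As a check of the tissue, the epithelial gene Epcam had 989 and 976 FPKM in the libraries labelled knockout and 1195 and 1315 FPKM in the controls.

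None of the 7 genes differed between the groups beyond the spread of the libraries. By limma 0 of 7 passed an adjusted p of 0.05, over all genes tested, where 94 of 12948 genes did (0.726%, with 0.595% higher and 0.131% lower). At an unadjusted p under 0.05 there were 0 of 7, against 26.6% of all genes (7.49% higher and 19.1% lower), and voom on recovered reads also called 0. All 7 fold changes were negative (3 of them, H2-Ab1, H2-DMb1 and Cd74, turned positive under median-ratio scaling), with a median log2 fold change of -0.20. Over all genes tested the median was -0.15, and 9279 of 12948 were negative. Relative to that median, the members lay at -0.05. With knockout replicate 2 or control replicate 2 left out, 5 of 7 fold changes were positive, with medians of 0.05 and 0.20, and the direction thus depends on those libraries. The intervals are wide, so these 4 libraries do not show that class II expression was the same in both groups.

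H2-Aa, the alpha chain of the A molecule (gene ID 14960, chromosome 17, 34282751 to 34287771, minus strand), measured 514 and 355 FPKM in the libraries labelled knockout, against 369 and 665 FPKM in the controls. The means were 435 ± 113 and 517 ± 209 FPKM (SD, n = 2 each). Each group held a high and a low library, and the groups overlapped. On the log2(FPKM + 1) scale, limma put the difference at -0.21 with an SE of 0.36 and a 95% interval of -1.21 to 0.79 (adjusted p = 0.726). H2-Ab1, the beta chain of the same molecule (gene ID 14961, chromosome 17, 34263227 to 34269418, plus strand), measured 492 and 355 FPKM in the libraries labelled knockout and 363 and 597 FPKM in the controls. Its libraries fell in the same order as those of its partner, and the fold change was -0.16 (95% interval -0.98 to 0.67, adjusted p = 0.764). H2-Eb1, the beta chain of the E molecule (gene ID 14969, chromosome 17, 34305867 to 34316674, plus strand), had 208 and 149 FPKM in the libraries labelled knockout, against 164 and 268 FPKM in the controls. The groups overlapped again, at -0.25 (95% interval -1.10 to 0.59, adjusted p = 0.624).

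Cd74, the invariant chain gene (gene ID 16149, chromosome 18, 60803849 to 60812652, plus strand), was the most abundant member. It measured 1113 and 845 FPKM in the libraries labelled knockout and 840 and 1212 FPKM in the controls. Higher and lower libraries were again split between the groups, with a log2 fold change of -0.06 (95% interval -0.69 to 0.57, adjusted p = 0.894). Cd74 ranked 45th by mean FPKM among the 13359 genes, above 99.7% of them. The locus also holds Mir5107, a microRNA gene on the same strand, so reads could be shared.

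H2-DMb1, the beta chain of the loading factor (gene ID 14999, chromosome 17, 34153191 to 34160229, plus strand), had 57.9 and 39.9 FPKM in the libraries labelled knockout and 39.0 and 72.9 FPKM in the controls. Its fold change was -0.15 (95% interval -1.24 to 0.94, adjusted p = 0.823). H2-DMb2 is a near copy of this gene, and no source used here gives how reads common to both were counted, so both values are uncertain. H2-DMa, the alpha chain (gene ID 14998, chromosome 17, 34122719 to 34139101, plus strand), had 8.14 and 5.70 FPKM in the libraries labelled knockout and 7.03 and 9.10 FPKM in the controls, at -0.20 (95% interval -0.73 to 0.33, adjusted p = 0.541). The length behind its values was 6798 bases, against 1284 for its partner H2-DMb1, which lowers its FPKM per read, and its RefSeq span overlaps Brd2.

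Ciita, the transactivator gene (gene ID 12265, chromosome 16, 10480014 to 10528606, plus strand), had the lowest fold change. It measured 6.95 and 4.02 FPKM in the libraries labelled knockout and 7.22 and 12.7 FPKM in the controls, with means of 5.48 ± 2.07 and 9.95 ± 3.87 FPKM (SD, n = 2 each). Both libraries labelled knockout lay below both controls, although the gap between replicate 1 of each group was small. The difference on the log2(FPKM + 1) scale was -0.75 (95% interval -1.77 to 0.27, adjusted p = 0.272), the smallest adjusted p of the 7. Ciita was the only 1 of the 7 members whose groups did not overlap, and it lay on the side where 48.5% of all genes tested also lay (14.9% lay wholly above, 63.4% on either side). Dexi overlaps its locus on the opposite strand, and gene-level values do not separate the promoters that Ciita uses in dendritic cells, in B cells and under interferon gamma.

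**Figure D1:**
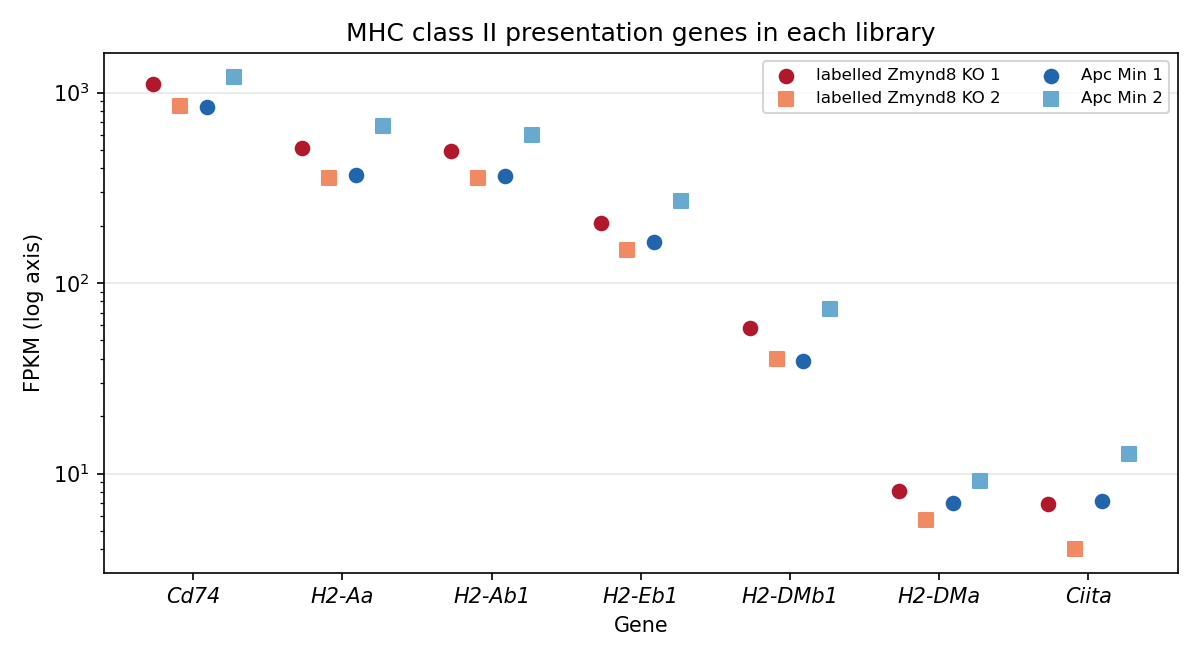
FPKM of the 7 genes on a log axis, 1 point per library (red, libraries labelled Zmynd8 knockout; blue, Apc Min controls; circles, replicate 1; squares, replicate 2). For 6 of the 7 genes control replicate 2 is highest and knockout replicate 1 is second, as for H2-Aa at 665 and 514 FPKM.

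**Figure D2:**
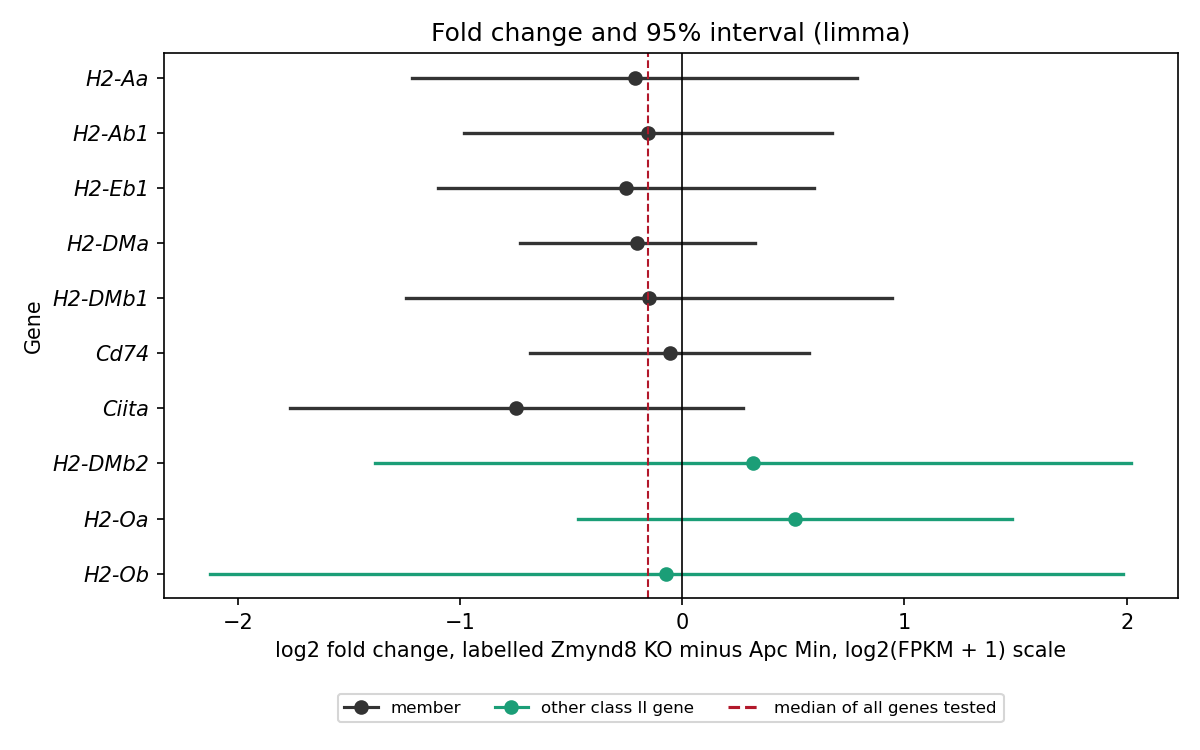
Log2 fold change (points) with 95% interval (lines) from limma for the 7 genes (black) and 3 other class II genes (green), on the log2(FPKM + 1) scale, libraries labelled knockout minus controls. Every interval covers 0, and the dashed line is the median of all genes tested, at -0.15.

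The authors' deposited table gave H2-Aa a p-value of 0.0177 and a q-value of 0.868. For the other 6 members the q-value in the authors' deposited table was 1, with p-values from 0.0882 for H2-Eb1 to 0.796 for H2-DMa. No source used here names the test behind them.

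The spread lay between libraries of the same group. The median member differed by -0.48 on the log2 scale between the libraries labelled knockout (replicate 2 minus 1) and by 0.71 between the controls. Over all genes tested, the median absolute difference was 0.12 between the libraries labelled knockout and 0.17 between the controls. H2-DMb1 was 1.45-fold higher in replicate 1 than in replicate 2 of the libraries labelled knockout, and 1.87-fold higher in replicate 2 than in replicate 1 of the controls. These folds exceed counting error. The thinnest value, Ciita in replicate 2 of the libraries labelled knockout, rested on 1449 reads (exact Poisson 95% interval 1375 to 1526), and the interval covers counting error only.

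Control replicate 2 was highest and knockout replicate 1 second for 6 of the 7 members, called the members' order below, which 5.78% of all genes tested held. The exception was Ciita, whose second library was control replicate 1. For 4 members (H2-Aa, H2-Ab1, H2-Eb1 and H2-DMa) the full order was control replicate 2, knockout replicate 1, control replicate 1 and knockout replicate 2, which 3.07% of all genes share. For Cd74 and H2-DMb1 the lower pair came in the other order, at 845 and 840 FPKM for Cd74.

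Within a library the proportions among members moved less than their levels. H2-Ab1 was 95.6% and 100.1% of H2-Aa, both as FPKM, in the libraries labelled knockout, and 98.4% and 89.7% in the controls. H2-DMb1 was 11.3% and 11.2% of H2-Aa in the libraries labelled knockout and 10.6% and 10.97% in the controls. H2-Eb1 ran at 40.4% and 41.98% of H2-Aa in the libraries labelled knockout and at 44.3% and 40.4% in the controls. Cd74 stood at 216% and 238% in the libraries labelled knockout and at 227% and 182% in the controls. Ciita was at 1.35% and 1.13% of H2-Aa in the libraries labelled knockout, against 1.95% and 1.91% in the controls. For Ciita the groups did not overlap in this proportion, which was computed after its values were seen, and 2 libraries a group allow no exact permutation p below 0.333. By level per length the order was Cd74, then H2-Aa and H2-Ab1, then H2-Eb1, then H2-DMb1, then Ciita and H2-DMa. The values of H2-Aa and H2-Ab1 overlapped, as did those of Ciita and H2-DMa, and levels were not tested between genes.

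Markers of the distal small intestine ranked the libraries as most members did. Of 6 ileal genes 5 were measured, and none was at 0 in any library. Fabp6 encodes a bile acid carrier of ileal enterocytes and measured 2250 and 134 FPKM in the libraries labelled knockout, against 1459 and 7606 FPKM in the controls. Slc10a2, the bile acid importer gene, had 104 and 23.4 FPKM in the libraries labelled knockout and 77.4 and 179.6 FPKM in the controls, and Slc51a, an exporter subunit gene, had 357 and 206 FPKM in the libraries labelled knockout, against 303 and 549 FPKM in the controls. The full order of H2-Aa held for 4 of the 5, the exception being Fgf15. Summed over the list, ileal FPKM was 2998 and 507 in the libraries labelled knockout and 2076 and 8806 in the controls. None of the 5 passed limma's threshold, and their part in the class II levels was not tested. Proximal markers did not follow the members: their summed FPKM was 1019 and 1750 in the libraries labelled knockout and 334 and 190 in the controls, with 0 of 7 tested genes past the threshold and 0 in the members' order. At an unadjusted p under 0.05, 5 of the 7 were higher (7.49% of all genes were), and their median log2 fold change was 1.28. Of 8 genes measured, 5 lay wholly above the controls and 2 wholly below, where 14.9% and 48.5% of all genes tested did. Slc40a1, chosen after its values were seen, was 1 of those below. It had 10.8 and 4.31 FPKM in the libraries labelled knockout and 31.8 and 17.6 FPKM in the controls (-1.64). Fabp1 and Lct of this list are also counted as enterocyte genes.

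**Figure D3:**
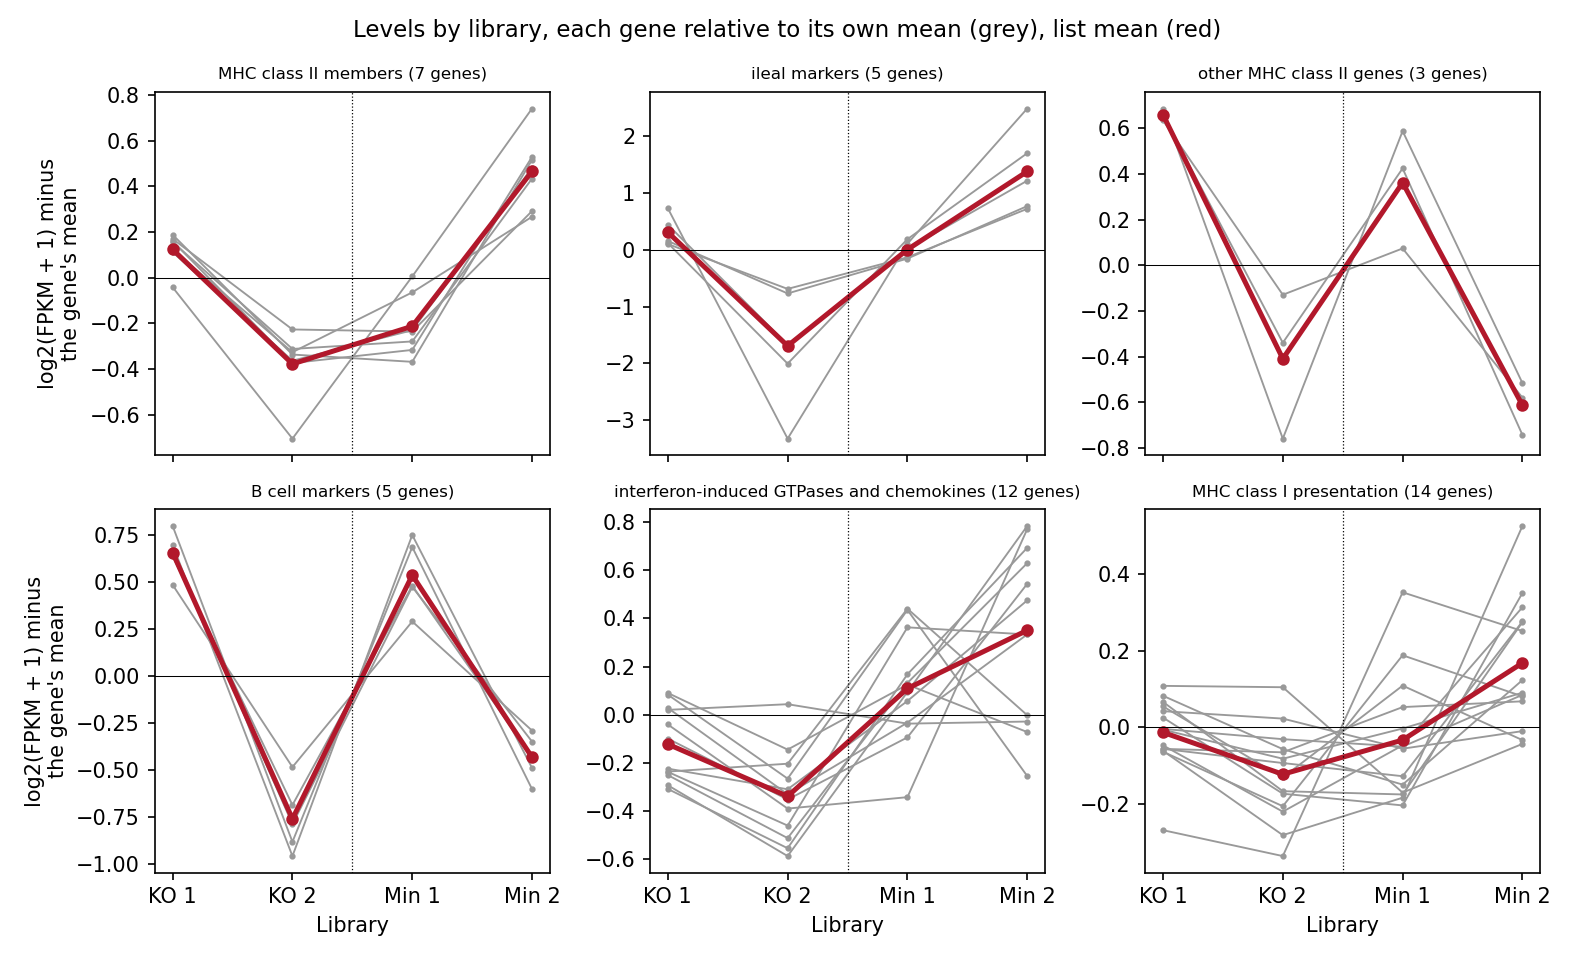
Log2(FPKM + 1) in each library minus the mean of the gene, for 6 gene lists (grey, single genes; red, list mean; KO, labelled Zmynd8 knockout; Min, Apc Min control; y axes differ between panels). The members average 0.12 and -0.38 in the libraries labelled knockout and -0.21 and 0.47 in the controls, while B cell genes and the 3 other class II genes are high in replicate 1 of both groups.

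Class II genes that B cells favour did not have the members' order. H2-Ob, a chain of the DO protein that inhibits the loading factor, had 2.70 and 0.356 FPKM in the libraries labelled knockout and 2.45 and 0.605 FPKM in the controls. H2-Oa, the other DO chain, had 2.05 and 0.795 FPKM in the libraries labelled knockout and 1.07 and 0.313 FPKM in the controls. H2-DMb2 had 6.395 and 2.70 FPKM in the libraries labelled knockout and 5.29 and 1.80 FPKM in the controls. Its promoter carries TGATTGG like that of H2-DMb1, and a link between that motif and the library order was not tested. For all 3, replicate 1 of both groups lay above replicate 2 of both, an order held by 14.0% of all genes tested. By limma 0 of the 3 passed the threshold, with a median of 0.32.

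B cell markers had that same order in 5 of 5 measured genes of 10 listed. Their summed FPKM was 25.5 and 6.44 in the libraries labelled knockout and 22.7 and 9.43 in the controls, and none was at 0. The members were low in control replicate 1, where B cell markers were high, and highest in control replicate 2, where B cell markers were low. Between the libraries labelled knockout, both were higher in replicate 1, with summed member FPKM of 2400 and 1754. In a bulk library, fewer cells of a type and less RNA per cell cannot be told apart.

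Summed over each list, myeloid markers spanned a narrower range than the members, although several single genes, among them Mertk and most dendritic cell genes, did not. Itgax, with 5.94 and 6.00 FPKM in the libraries labelled knockout and 4.72 and 5.10 FPKM in the controls, was the largest part of the dendritic sum. Cd209a, Cd83 and Batf3 were low and varied more widely. Cd209a had 1.09 and 1.66 FPKM in the libraries labelled knockout and 0.377 and 0.318 FPKM in the controls. Dendritic cell genes, 4 measured of 9, summed to 12.1 and 10.9 FPKM in the libraries labelled knockout and to 10.1 and 8.39 FPKM in the controls, with no gene at 0 and none in the members' order. Macrophage genes, 12 of 13, summed to 219 and 210 FPKM in the libraries labelled knockout and to 211 and 194 FPKM in the controls, and 3 of the 12 (C1qa, C1qb and Aif1) had the members' order. Pan-leukocyte genes, 7 of 7, summed to 108 and 81.7 FPKM in the libraries labelled knockout and to 104 and 87.2 FPKM in the controls, with the members' order in 1 (Fcer1g) and the order of B cell markers in the other 6, where 14.0% of all genes had it. Of these genes, those beyond the 4 of smallest p in a list are named after their values were seen. Among all 3 lists 0 genes passed limma's threshold. At an unadjusted p under 0.05, 2 were higher and 1 lower, where 7.49% and 19.1% of all genes were. Mertk, a phagocytic receptor gene, was 1 of the higher, with 44.2 and 57.9 FPKM in the libraries labelled knockout and 26.7 and 27.1 FPKM in the controls. Pan-epithelial genes summed to 7459 and 7149 FPKM in the libraries labelled knockout and to 8019 and 8946 FPKM in the controls. Red blood cell genes, 5 of 5, summed to 38.6 and 36.2 FPKM in the libraries labelled knockout and to 26.9 and 68.1 FPKM in the controls. All 5 were highest in control replicate 2, 2 of the 5 had the members' order, and 0 passed the threshold. Endothelial and fibroblast genes, 9 of 9, summed to 128 and 129 FPKM in the libraries labelled knockout and to 192 and 118 FPKM in the controls, with 0 past the threshold and 0 in the members' order. The part of other cell types in the class II levels was not tested.

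**Figure D4:**
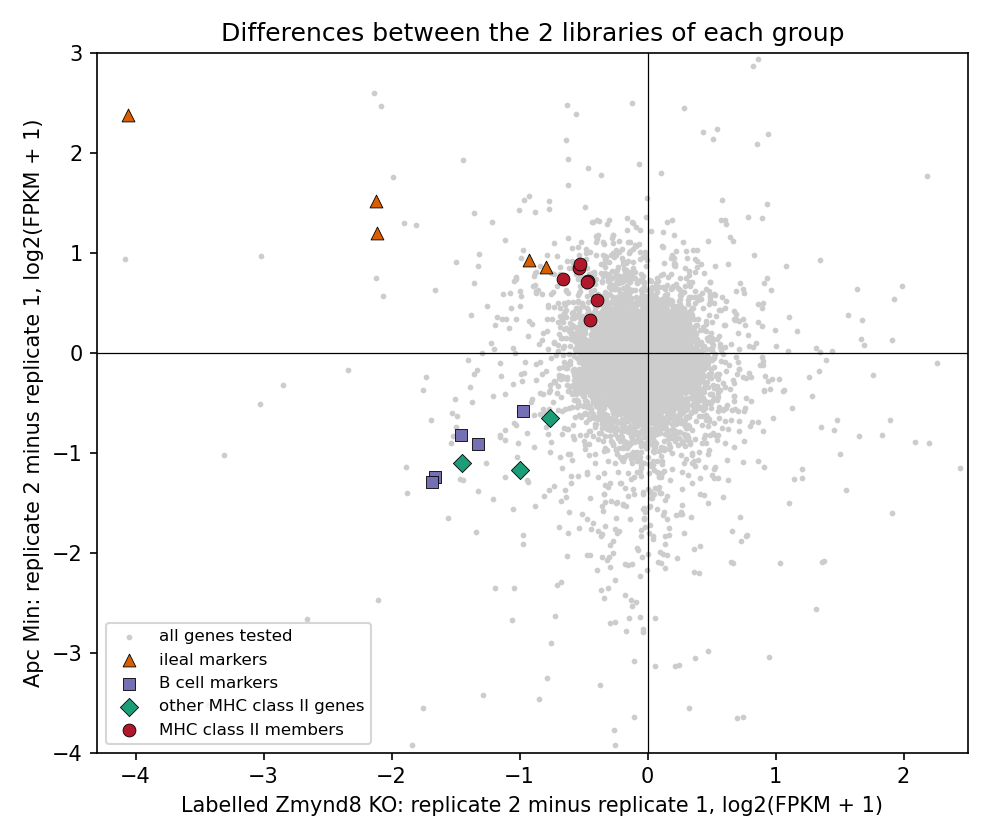
Difference between the 2 libraries of each group on the log2(FPKM + 1) scale, the libraries labelled knockout on the x axis and the controls on the y axis, 1 point per gene tested (17 genes lie outside the axes). All 7 members and all 5 ileal genes lie at upper left, and all 5 B cell genes and the 3 other class II genes at lower left.

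None of the measured genes of endosomal antigen processing passed limma's threshold. Ctss encodes cathepsin S, which trims the invariant chain, and had 125 and 121 FPKM in the libraries labelled knockout and 119 and 122 FPKM in the controls. Ifi30, the lysosomal thiol reductase gene, had 103 and 112 FPKM in the libraries labelled knockout, against 80.7 and 84.6 FPKM in the controls (log2 fold change 0.38, adjusted p = 0.125). Lgmn, an asparaginyl endopeptidase gene, had 24.1 and 22.7 FPKM in the libraries labelled knockout, against 31.7 and 30.2 FPKM in the controls (-0.39, adjusted p = 0.106). Ctsz, another cathepsin gene, gave 0.41 (adjusted p = 0.118). Of 9 measured genes 0 passed, with a median of 0.03 and 0 in the members' order. At an unadjusted p under 0.05, 2 were higher and 1 lower, where 7.49% and 19.1% of all genes were.

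Nor did any of the genes for factors that assemble on class II promoters. Rfx5, the subunit gene named for the X box factor, had 1.86 and 1.61 FPKM in the libraries labelled knockout and 3.22 and 2.08 FPKM in the controls (-0.40, adjusted p = 0.252). Nfyb, a subunit gene of NF-Y, gave -0.41 (adjusted p = 0.189), while Nfyc gave 0.03 and Rfxank 0.06. Smarca4, the chromatin remodeller gene, had the smallest p, with 15.1 and 14.3 FPKM in the libraries labelled knockout and 21.5 and 17.6 FPKM in the controls (-0.38, adjusted p = 0.152). Of 11 genes 0 passed, the median was -0.09, and none had the members' order. At an unadjusted p under 0.05, 1 was lower, where 19.1% of all genes were.

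Among interferon gamma signalling genes 0 passed limma's threshold. At an unadjusted p under 0.05, 2 were higher and 0 lower, where 7.49% and 19.1% of all genes were. Irf1, a transcription factor gene that drives Ciita under interferon gamma, had 64.8 and 62.9 FPKM in the libraries labelled knockout and 77.5 and 120.2 FPKM in the controls (-0.59, adjusted p = 0.191). Socs1, a feedback inhibitor gene, had 5.55 and 3.58 FPKM in the libraries labelled knockout and 6.01 and 14.1 FPKM in the controls (-0.91, adjusted p = 0.290). Irf8 gave -0.47, whereas Irf2 gave 0.36 (adjusted p = 0.132) and Jak2 0.25. The receptor genes Ifngr1 and Ifngr2 gave -0.11 and 0.05. Of 10 measured genes 6 lay below the controls in both libraries and 2 above, where 48.5% and 14.9% of all genes did, with a median of -0.19, and 0 had the members' order.

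Interferon-induced GTPase and chemokine genes gave a median of -0.44 over 12, where that of all genes tested was -0.15. Of the 12, 0 passed the threshold and 5 were lower at an unadjusted p under 0.05 (19.1% of all genes were). Iigp1 had 7.52 and 6.30 FPKM in the libraries labelled knockout, against 11.9 and 11.7 FPKM in the controls (-0.70, adjusted p = 0.0765). Gbp2 had 12.95 and 10.8 FPKM in the libraries labelled knockout, against 18.4 and 26.9 FPKM in the controls (-0.86, adjusted p = 0.117). These lay below the controls in both libraries labelled knockout, as did 7 of the 12, where 48.5% of all genes did. The members' order held for Gbp7 and Ido1, chosen after their values were seen. Ido1, a tryptophan-degrading enzyme gene, had 30.5 and 23.7 FPKM in the libraries labelled knockout and 24.5 and 54.2 FPKM in the controls.

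Part of the class I presentation genes shared the members' order, 6 of 14, all named after their values were seen. Nlrc5, which encodes the class I counterpart of CIITA, had 4.46 and 3.69 FPKM in the libraries labelled knockout and 4.02 and 7.22 FPKM in the controls. Psmb9, an immunoproteasome subunit gene, had 54.1 and 47.0 FPKM in the libraries labelled knockout and 46.0 and 68.1 FPKM in the controls. The other 4 were Psmb8, Psmb10, Psme1 and Tap2, and Tap1 missed the order by a near tie between knockout replicate 1 and control replicate 1. B2m, the class I light chain gene, also chosen after its values were seen, had 1848 and 1843 FPKM in the libraries labelled knockout, against 1522 and 1663 FPKM in the controls (0.21, adjusted p = 0.342). Of 14 genes 0 passed, the median was -0.11, and the smallest adjusted p was 0.0758, for the loading chaperone gene Tapbp at -0.61.

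Neighbouring genes of the class II region held different library orders. From H2-DMa to H2-Eb1 on chromosome 17 (34122719 to 34316674) the table holds 12 genes, 5 of them members. Among the 7 others, Psmb9, Psmb8 and Tap2 had the members' order, H2-DMb2 and H2-Ob had that of B cell markers, and Tap1 and an antisense gene had neither. Tap1 missed the members' order by a near tie, with 43.313 FPKM in knockout replicate 1 and 43.315 FPKM in control replicate 1. Psmb8 and Tap2 overlap that antisense gene on the opposite strand, so their reads are uncertain where strand was not used. Cd74 and Ciita lie on other chromosomes, and Cd74 is among the members from which the members' order was taken.

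The 10 genes nearest to the members' mean profile over the 4 libraries included Slc30a1, a zinc exporter gene. It lay at a Euclidean distance of 0.068 on the log2(FPKM + 1) scale, with 13.7 and 9.26 FPKM in the libraries labelled knockout and 9.97 and 17.5 FPKM in the controls. Pmp22, a myelin and epithelial junction protein gene, lay at 0.113, with 273 and 203 FPKM in the libraries labelled knockout and 216 and 379 FPKM in the controls. Dpep1, a membrane dipeptidase gene, lay at 0.128, with 189.9 and 150.4 FPKM in the libraries labelled knockout and 162.5 and 248.6 FPKM in the controls. The others were Hspb6, Serpina1b (with close relatives), Plcd1, Hspa12a, Mir192, an immunoglobulin joining segment and 1 gene without a symbol, all within 0.158. The median distance of the 7822 candidates was 0.692. Among members the distance ran from 0.030 for H2-Eb1 to 0.254 for H2-DMa, with Ciita at 0.508.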

How the data were processed

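The authors' deposited table holds expression values for each library and group means. Per the file headers it also holds log2 ratios with a p-value and q-value for each gene, and no unit is named. The deposited values were taken as FPKM because 13357 of 13359 genes gave whole reads within 0.002 for some whole length. That length is the smallest that fits, so recovered reads may be a fraction of the true number. The submitters' processing notes name HISAT2, BWA, SICER, mm10 and hg38 without roles. No source used here names the counter, the annotation or the use of strand. Of 13527 entries, 168 repeated another exactly and were used once. Every gene held had a mean above 1 FPKM in at least 1 group. The 4 ChIP-seq libraries were not analysed here. All per-sample columns were used (0 left out).

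Log2(FPKM + 1) values entered limma 3.58.1 (R 4.3.3), using a variance trend and robust moderation. The 12948 genes tested reached 1 FPKM in 2 or more libraries. Genotype was the only term, with 2 residual degrees of freedom. P-values were adjusted by Benjamini-Hochberg over all genes tested, and fold changes understate those of low genes. The test and the recovery were tested on simulated data. Alternatives changed the pseudocount, filter, scaling, trend, test, block and libraries used. Replicate numbers are shared by the groups, but same-numbered libraries gave a correlation of deviations of 0.045 and nothing in the labels pairs them. No pair of libraries held identical values. The members and lists were chosen with earlier results of these data known. Genes named are the members, up to 4 of smallest p per other list, all measured genes of the class II, processing, promoter factor and interferon gamma lists, and the 10 nearest profiles. Any other gene is marked where it is named. Some listed genes are counted but not reported here by name. Promoters are from RefSeq.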

Additional observations from a re-analysis of the deposited data

How the results depend on the processing

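The count of members past the threshold stayed at 0 higher and 0 lower under all 13 alternatives run. The median fold change of the members lay between -0.24 and -0.04 under the 9 that kept all libraries, with a median of -0.20 under the replicate block, where 0 of 12948 genes passed. Median-ratio scaling moved the median of all genes from -0.15 to -0.0078 and turned H2-Ab1 to 0.0175, H2-DMb1 to 0.0212 and Cd74 to 0.12. Voom with TMM on recovered reads gave them 0.0041, 0.0076 and 0.10. Ciita stayed negative under those 9, from -0.84 to -0.57, with adjusted p from 0.257 to 0.480.

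Leaving out 1 library turned the direction of every member except Ciita, without a call. The median was -0.43 without knockout replicate 1, 0.05 without knockout replicate 2, -0.59 without control replicate 1 and 0.20 without control replicate 2. Over all genes, 77 higher and 17 lower calls became 0 and 0 without either library labelled knockout, 65 and 15 without control replicate 1, and 230 and 386 without control replicate 2. They were 1 and 0 with no filter, 2 and 0 at a mean of at least 5 FPKM, 41 and 9 without the trend, 60 and 4 under median-ratio scaling, 61 and 5 under quantile normalization, and 184 and 21 by voom. The ranges were -0.64 to 0.21 for H2-Aa, -0.51 to 0.20 for H2-Ab1, -0.61 to 0.10 for H2-Eb1, -0.43 to 0.0216 for H2-DMa, -0.59 to 0.29 for H2-DMb1, -0.32 to 0.21 for Cd74 and -1.12 to -0.38 for Ciita. The group that lost a library then keeps 1, assumed to vary like the other group. The second count model planned for the recovered reads was not run. With 2 pools a group, the width of the intervals and not read depth limits what can be seen.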

Other observations

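Cd274, which encodes the checkpoint ligand PD-L1, had 3.16 and 3.13 FPKM in the libraries labelled knockout and 4.52 and 13.1 FPKM in the controls (log2 fold change -1.09, limma adjusted p = 0.265). Gzmb, a granzyme gene of cytotoxic lymphocytes chosen after its values were seen, had 37.0 and 35.9 FPKM in the libraries labelled knockout and 37.1 and 62.1 FPKM in the controls. Over 12 T cell and innate lymphocyte genes 0 passed the threshold, 4 had the order of the class II genes, and summed FPKM was 237 and 216 in the libraries labelled knockout and 197 and 308 in the controls. Plasma cell genes, 5 of 6 listed, summed to 463 and 324 FPKM in the libraries labelled knockout and to 395 and 425 FPKM in the controls, with 0 past the threshold and 0 in that order.

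Of 12 enterocyte genes, Slc2a2, Mme and Treh were higher past the threshold in the libraries labelled knockout, with adjusted p from 0.0412 to 0.0417 (77 of 12948 genes were higher), and 9 did not pass. These calls were lost under the replicate block and without either library labelled knockout, where 0 genes passed. With no filter only 1 gene passed in all, and at a mean of at least 5 FPKM only 2, so these calls could not all stay there either. All 12 were higher in both libraries labelled knockout than in both controls, where 14.9% of all genes were. At an unadjusted p under 0.05 by limma, 10 of the 12 were higher (7.49% of all genes were), and the median log2 fold change was 1.21. None of the 12 had the order of the class II genes. Stem cell genes were lower in both libraries labelled knockout than in both controls in 6 of 6, where 48.5% of all genes were. Of the 6, 0 passed the threshold, 4 were lower at an unadjusted p under 0.05 (19.1% of all genes were), and none had that order.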
